A study of Mus musculus with 9 samples.

Results

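The miR-99, miR-100 and miR-125 families were followed in vesicles shed into the medium by a conditionally immortalized line of mouse podocytes, the kidney cells whose foot processes cover the filtration barrier. The members were 7 mature miRNAs of these families taken from a fixed list of names, out of 1915 mouse miRNA identifiers in the files: mmu-miR-100-5p, mmu-miR-99a-5p, mmu-miR-99b-5p, mmu-miR-99b-3p, mmu-miR-125a-5p, mmu-miR-125a-3p and mmu-miR-125b-5p, written from here on without the mouse prefix. After 10 days of differentiation without interferon-γ, the cells were held for 48 h in 30 mM glucose (high glucose), in 5.3 mM glucose with 24.7 mM mannitol (mannitol, the control for osmolality), or in 5.3 mM glucose (normal glucose), with 3 small RNA libraries per group. All groups share the same line. Whether libraries stem from independent cultures is unstated in the labels, so the spread behind every p-value may be technical only. The labels do not say whether the fetal serum of the medium was cleared of its own vesicles.

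A miRNA represses mRNAs that pair with its seed, the bases near its 5′ end, so miRNAs with the same seed address overlapping targets. In mammalian cells miR-99 and miR-100 are known as repressors of mTOR and of the insulin-like growth factor receptor, both of them growth signalling genes. miR-125 is the mammalian relative of lin-4, which times larval development in Caenorhabditis elegans, and its genes sit beside those of let-7, another such timer. Both miR-125 and let-7 target Lin28, a protein that blocks let-7 maturation.

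The mature sequences, from RefSeq on the mouse build GRCm38 (mm10), are shown because the seeds divide the members into 4 groups. Capitals mark the seed, bases 2 to 8 from the 5′ end.
miR-100-5p: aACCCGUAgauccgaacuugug
miR-99a-5p: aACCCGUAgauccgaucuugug
miR-99b-5p: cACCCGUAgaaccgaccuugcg
miR-125a-5p: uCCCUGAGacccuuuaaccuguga
miR-125b-5p: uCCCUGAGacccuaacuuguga
miR-99b-3p: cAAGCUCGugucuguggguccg
miR-125a-3p: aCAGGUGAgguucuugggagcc

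miR-100-5p, miR-99a-5p and miR-99b-5p carry the seed ACCCGUA, and miR-125a-5p and miR-125b-5p carry the seed CCCUGAG. The 3p arms miR-99b-3p and miR-125a-3p each have a seed that no other member shares. With positions counted from the 5′ base of miR-99a-5p, miR-100-5p differs from it by the single substitution U16A. By the same count miR-99b-5p differs from miR-99a-5p by A1C, U11A, U16C and U21C. miR-125a-5p and miR-125b-5p are identical over their first 13 bases and lie 3 edits apart. Reads of miR-99a-5p and miR-100-5p with an error at the position that separates them could be assigned to the wrong member, and the sources used here do not give the aligner's mismatch setting.

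The members come from 3 genomic clusters of the same plan, each holding a miR-99 or miR-100 gene, a let-7 gene and a miR-125 gene on the plus strand (mm10, GENCODE M21). On chromosome 9, Mir100 (41531425 to 41531504), Mirlet7a-2 (41536716 to 41536811) and Mir125b-1 (41581926 to 41582002) span 50578 bases inside the noncoding transcript genes 3110039I08Rik and Gm49317. There Mir100 and Mirlet7a-2 overlap no exon, and Mir125b-1 overlaps an exon of Gm28119, annotated as sense intronic. On chromosome 16, Mir99a (77598936 to 77599000), Mirlet7c-1 (77599657 to 77599750) and Mir125b-2 (77646273 to 77646343) span 47408 bases within Mir99ahg, the miR-99a host gene. Mir125b-2 overlaps an exon of C130023A14Rik, and the others overlap no exon. The cluster on chromosome 17 is compact, with Mir99b (17830188 to 17830257), Mirlet7e (17830352 to 17830444) and Mir125a (17830812 to 17830879) in 692 bases of the protein-coding gene Spaca6. Mir125a overlaps an exon of Spaca6 and the other hairpins there overlap none. The mature miR-125b-5p is made from 2 genes, Mir125b-1 and Mir125b-2, so its reads cannot be divided between chromosomes 9 and 16.

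Levels are given as CPM, the counts of a miRNA per 1000000 counts of all miRNAs in its library, a share and not an amount: a smaller number of vesicles that carry a miRNA and less of it per vesicle cannot be told apart. All 7 members were listed in all 9 libraries and passed the filter on low counts, as did 361 miRNAs in all. Total miRNA counts ran from 725211 to 2553690 per library, and the smallest count of any member was 769. Counting error was thus small beside the spread between libraries. The podocyte-associated miR-30 members, 5 of 5 listed in every library, summed to 149949 to 224982 CPM under high glucose, 106713 to 177083 CPM under mannitol and 126420 to 140209 CPM under normal glucose. Of 9 markers of blood and liver, 3 were listed in all libraries and 1, miR-142a-3p, was listed at 0 throughout. The list as a whole was present in every library. It summed to 13495 to 25642, 15507 to 33520 and 15523 to 30463 CPM under high glucose, mannitol and normal glucose. Every high glucose library was above every normal glucose library in the miR-30 sum, and the mannitol range overlapped both. The share of all miRNAs higher without overlap in high glucose is not given here, so whether this separation is unusual cannot be told. The blood and liver list overlapped among the groups. The muscle list, 3 of 3 listed in all, gave 1401 to 1761, 1368 to 5994 and 1666 to 3029 CPM in the same order of groups. The neural list, 2 of 3 listed in all, gave 1355 to 2406, 1872 to 3005 and 1924 to 3384 CPM. The endothelial list, 1 of 2 listed in all, gave 276.5 to 678, 308 to 344 and 229 to 825 CPM. The part of such other sources in the members' levels was not tested.

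The families made up 2.83% to 5.89% of all miRNA counts per library. The most abundant member, miR-100-5p, had 16041, 10057 and 13736 CPM under high glucose, 17795, 11710 and 19519 CPM under mannitol, and 18329, 11843 and 16849 CPM under normal glucose. Replicate 2 was the lowest library of each group, and the 3 groups overlapped. miR-99b-5p, which shares its seed, had 10946, 7019 and 8093 CPM under high glucose, 16318, 7364 and 17550 CPM under mannitol, and 16703, 12941 and 10114 CPM under normal glucose. Mannitol replicate 2 stood with the high glucose libraries, so the groups overlapped. miR-99a-5p, near-identical to miR-100-5p in sequence, had 2967, 2938 and 3386 CPM under high glucose, 4669, 4002 and 5301 CPM under mannitol, and 4000, 3697 and 4822 CPM under normal glucose. All high glucose libraries were below all others for this member, and the mannitol and normal glucose libraries overlapped. miR-99b-3p, the opposite arm of the miR-99b hairpin, had 4528, 2871 and 3547 CPM under high glucose, 4467, 3607 and 4402 CPM under mannitol, and 4602, 3492 and 3958 CPM under normal glucose. Its 3 groups overlapped, and high glucose replicate 2 was the lowest library.

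Among the miR-125 members, miR-125b-5p was the most abundant, with 4952, 3496 and 4078 CPM under high glucose, 7794, 3507 and 8366 CPM under mannitol, and 6158, 4207 and 4295 CPM under normal glucose. Mannitol replicates 1 and 3 were the highest of the 9 libraries and mannitol replicate 2 was among the lowest. miR-125a-5p, of the same seed, had 1060, 861 and 881 CPM under high glucose, 1591, 819 and 1295 CPM under mannitol, and 1285, 1535 and 888 CPM under normal glucose. The groups overlapped, with the lowest value in mannitol replicate 2. miR-125a-3p, cut from the same hairpin as miR-125a-5p, had 1354, 1040 and 916 CPM under high glucose, 2144, 1193 and 2510 CPM under mannitol, and 1159, 1659 and 1339 CPM under normal glucose. It had the widest range of any member, with a highest value 2.74 times the lowest, against 1.60 times for miR-99b-3p, the narrowest.

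**Figure D1:**
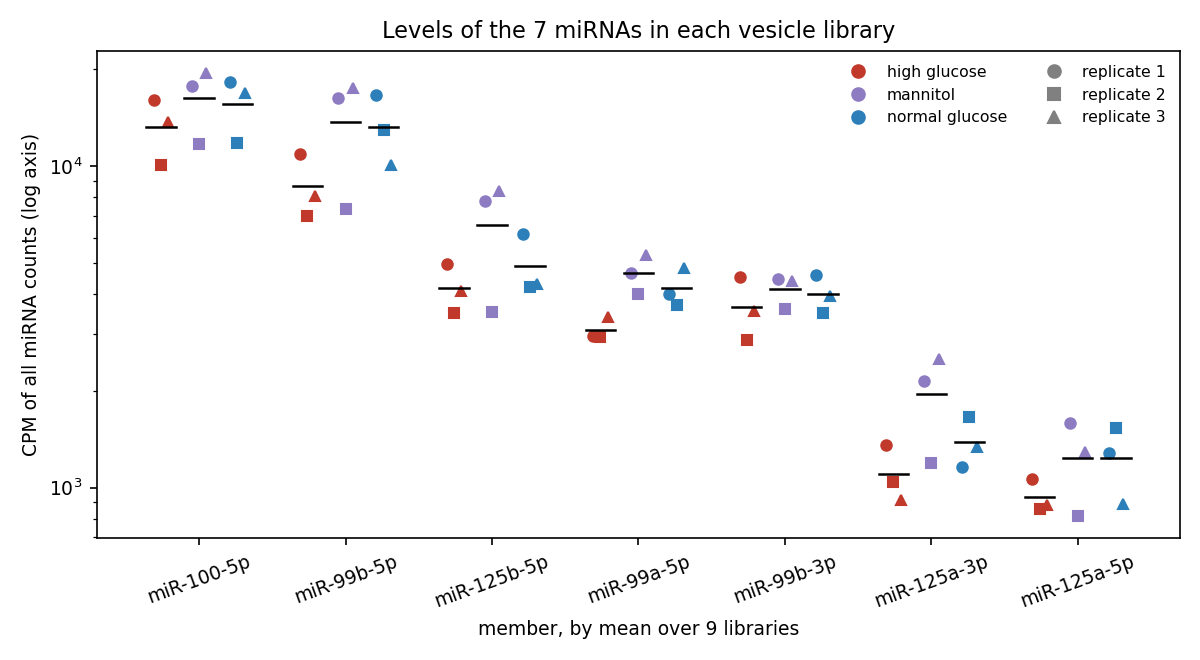
Level of each of the 7 members in the 9 libraries, in CPM on a log axis. Points are libraries, their shape the replicate, and short lines are group means (n = 3 each), for high glucose, mannitol and normal glucose from left to right. For miR-99a-5p alone the high glucose points lie below those of both other groups.

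The members were ordered by their mean over the 9 libraries. Means were 15098 ± 3364 CPM for miR-100-5p, 11894 ± 4162 CPM for miR-99b-5p, 5206 ± 1822 CPM for miR-125b-5p, 3976 ± 827 CPM for miR-99a-5p, 3941 ± 601 CPM for miR-99b-3p, 1479 ± 532 CPM for miR-125a-3p and 1135 ± 301 CPM for miR-125a-5p (SD, n = 9). Among all miRNAs of a library, miR-100-5p ranked between 13 and 21 and miR-125a-5p between 62 and 78. The mature lengths are 22 to 24 bases and reads were counted per mature miRNA, so no length correction was applied. Adapter ligation has a yield that depends on sequence, so a difference between members describes reads and not molecules. Each neighbouring pair in the order was compared within libraries by an exact two-sided sign-flip test, with p-values adjusted over the 6 pairs. The order tested was set by the means of the same libraries, so these p-values lean low and are no independent evidence of the order. The number of libraries in order shows how steady it was. miR-100-5p exceeded miR-99b-5p 1.31-fold and in 8 of 9 libraries (exact p = 0.0117, adjusted 0.0234). The fold of miR-99b-5p over miR-125b-5p was 2.27, in 9 of 9 libraries, with the smallest p that 9 libraries allow (exact p = 0.00391, adjusted 0.0117). The most abundant pair of members thus shared a seed. miR-125b-5p exceeded miR-99a-5p 1.27-fold in 7 of 9 libraries (exact p = 0.0312, adjusted 0.0375), with a mean log2 ratio of 0.35 and an SD of 0.37, so that single libraries crossed over. miR-99a-5p and miR-99b-3p could not be ordered, with miR-99a-5p the higher in 6 of 9 libraries (exact p = 1). miR-99b-3p was 2.77 times miR-125a-3p in 9 of 9 libraries (exact p = 0.00391, adjusted 0.0117). miR-125a-3p exceeded miR-125a-5p, the arm usually named as the guide, 1.28-fold in 8 of 9 libraries (exact p = 0.0156, adjusted 0.0234). The order of the group means was the same with mannitol and in normal glucose, and in high glucose miR-99b-3p came before miR-99a-5p.

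Members that share a seed add up as regulators. The 3 members with the miR-99/100 seed summed to 25061 ± 4972 CPM under high glucose, 34743 ± 10261 CPM under mannitol and 33100 ± 5397 CPM under normal glucose (mean ± SD, n = 3 each). Those with the miR-125 seed summed to 5109 ± 838 CPM under high glucose, 7791 ± 3004 CPM under mannitol and 6123 ± 1177 CPM under normal glucose (mean ± SD, n = 3 each). The first sum was 4.13 to 6.13 times the second in every library. The libraries of the 3 groups overlapped in both sums.

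Within the clusters the let-7 partners had very unequal shares of the reads. let-7c-5p, from the cluster of miR-99a but also made from a second gene, had 18222, 18341 and 12520 CPM under high glucose, 24000, 16430 and 26243 CPM under mannitol, and 20527, 25734 and 17799 CPM under normal glucose. let-7e-5p, made only on chromosome 17 between miR-99b and miR-125a, had 343, 333 and 187 CPM under high glucose, 413, 325 and 234 CPM under mannitol, and 278, 613 and 319 CPM under normal glucose. Although their hairpins lie within 692 bases, miR-99b-5p was 21.1 to 75.2 times let-7e-5p and miR-125a-5p was 2.51 to 5.55 times let-7e-5p. let-7a-5p, the partner of miR-100 that is also made from a second hairpin, lay at 2875, 2576 and 1584 CPM under high glucose, 2979, 2690 and 1948 CPM under mannitol, and 2321, 5606 and 2723 CPM under normal glucose. Thus a member exceeded its let-7 partner on chromosome 17 and on chromosome 9, and miR-99a-5p was 0.144 to 0.271 times let-7c-5p on chromosome 16. let-7e-5p and let-7a-5p are near-identical in sequence and had a Pearson's r of 0.98 over the 9 libraries, which share total counts as denominators. let-7c-5p and let-7a-5p, also near-identical in sequence, had an r of 0.61. The assignment of reads among these let-7 arms is uncertain, and its part in these values was not tested.
let-7a-5p: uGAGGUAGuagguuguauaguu
let-7c-5p: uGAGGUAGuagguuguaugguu
let-7e-5p: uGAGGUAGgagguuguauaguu

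**Figure D2:**
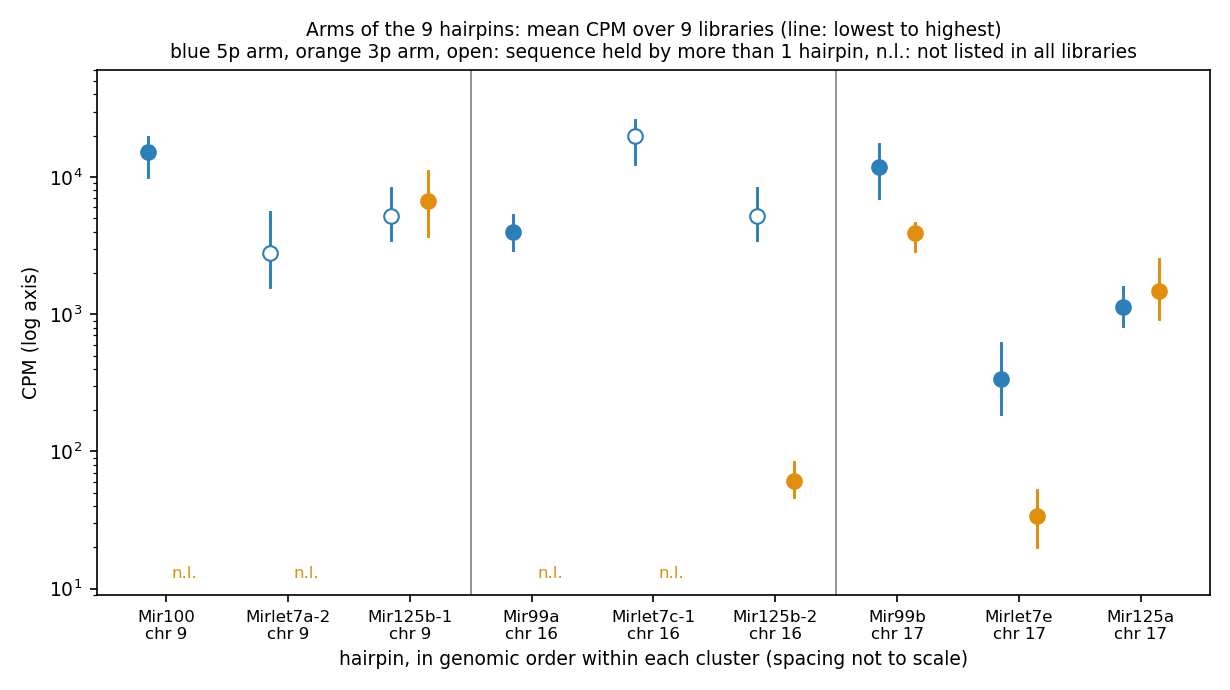
Mean CPM over the 9 libraries (log axis) of the 5p arm (blue) and 3p arm (orange) of the 9 hairpins in the 3 clusters, in genomic order and not to scale, with lines from the lowest to the highest library. Open points are sequences made from more than 1 hairpin, miR-125b-5p being drawn in 2 clusters, and n.l. marks arms not listed in all libraries. let-7e-5p lies far below the 5p arms on both sides of it, and let-7c-5p lies above miR-99a-5p.

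The arms of a hairpin differed in their reads. Since ligation yield depends on sequence, differences between arms describe reads and not molecules in the vesicles. The hairpins of Mir125a (chr17:17830812-17830879, plus strand) and Mir125b-1 (chr9:41581926-41582002, plus strand) are shown with both mature arms in capitals, since each gave abundant 3p reads.
Mir125a: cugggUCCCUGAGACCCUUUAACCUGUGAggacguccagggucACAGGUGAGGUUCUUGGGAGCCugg
Mir125b-1: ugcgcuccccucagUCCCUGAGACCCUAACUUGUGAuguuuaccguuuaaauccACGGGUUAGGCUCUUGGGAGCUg

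The ratio of miR-125a-5p to miR-125a-3p was 0.783, 0.828 and 0.962 in high glucose, 0.742, 0.687 and 0.516 with mannitol, and 1.11, 0.925 and 0.663 in normal glucose. The 3p arm was the higher arm in all but normal glucose replicate 1. On the log2 scale the ratio was 0.42 higher in high glucose than with mannitol in 9 of 9 library pairs (exact permutation p = 0.1, the smallest that 3 against 3 allow, adjusted 0.675 over 18 ratio tests). Against normal glucose the high glucose ratio differed by -0.04 (exact permutation p = 1), and this sign turned without high glucose replicate 1 (0.02) or without normal glucose replicate 1 (0.13). For the other hairpin, miR-125b-1-3p had 6888, 4079 and 3711 CPM under high glucose, 11047, 5066 and 9864 CPM under mannitol, and 6233, 7109 and 5712 CPM under normal glucose. It exceeded miR-125b-5p in 8 of 9 libraries, although miR-125b-5p pools the 5p product of both miR-125b genes. The 3p product of the other gene, miR-125b-2-3p, had only 46.9 to 83.7 CPM, so that miR-125b-1-3p was 54.1 to 198 times as high.

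The miR-99b hairpin had the opposite balance. Its ratio of 5p to 3p was 2.42, 2.45 and 2.28 in high glucose, 3.65, 2.04 and 3.99 with mannitol, and 3.63, 3.71 and 2.56 in normal glucose. Every high glucose library was below every normal glucose library, a log2 difference of -0.45 (exact permutation p = 0.1, adjusted 0.675). Against mannitol the difference was -0.38 in 6 of 9 library pairs (exact permutation p = 0.4, adjusted 0.72). The opposite arms of the other 2 members with this seed, miR-99a-3p and miR-100-3p, were listed at 0 in all libraries, as was let-7a-2-3p. No count from 1 to 9 occurs in the files, so a listed 0 stands for at most 9 reads, and the arms may be present below that limit. let-7e-3p was listed at 20.1 to 52.6 CPM, and let-7c-1-3p only in mannitol replicate 3, with 10 reads.

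**Figure D3:**
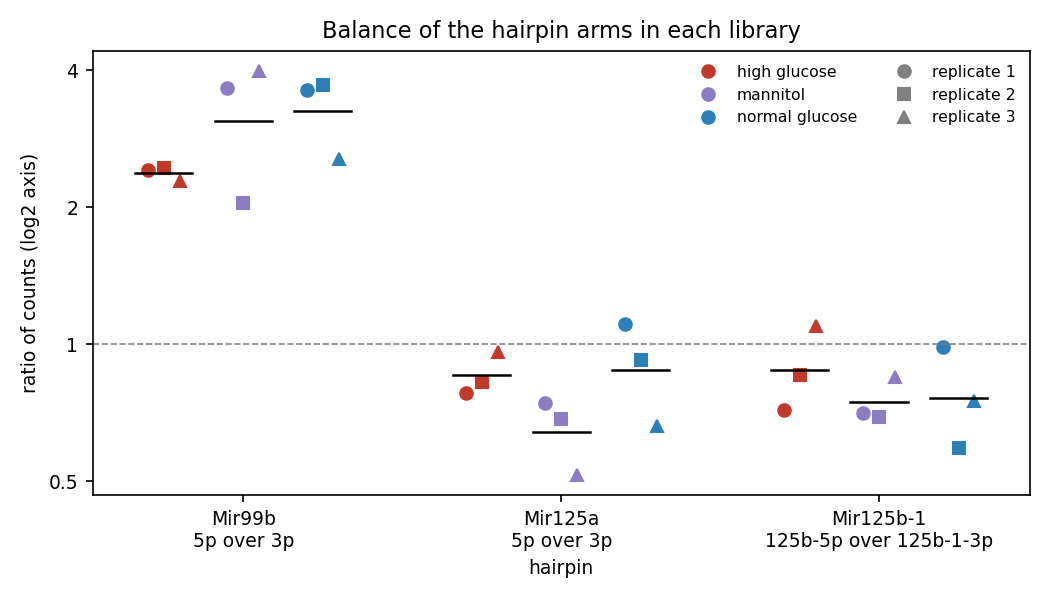
Ratio of the 5p to the 3p arm in each library for miR-99b, miR-125a and miR-125b (over miR-125b-1-3p), on a log axis, grouped as high glucose, mannitol and normal glucose, with short lines at the geometric means. miR-99b lies above 1 in all libraries, and miR-125a and miR-125b each lie above 1 in 1 of 9.

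High glucose was set against normal glucose, the question named by the series title. Unless another setting is named, log2 fold changes from here on are edgeR values after TMM scaling between libraries. The CPM are unscaled shares, so a fold change can differ from the ratio of the CPM means beside it. miR-99a-5p averaged 3097 ± 250 CPM under high glucose and 4173 ± 582 CPM under normal glucose (mean ± SD, n = 3 each), without overlap, a log2 fold change of -0.32 ± 0.25 (SE), the 95% interval being -0.86 to 0.21. In CPM it was the only member of the 7 whose groups did not overlap in this direction, beside 6.93% of all 361 miRNAs tested. It did not pass the test (adjusted p = 0.995, edgeR's quasi-likelihood test). Outside the members, 2 of 2 seed-related arms (miR-10a-5p and miR-10b-5p) and 1 of 6 other let-7 guide arms (let-7b-5p) were lower without overlap in CPM. Among the let-7 partners it was 0 of 3, and among the opposite arms tested 0 of 4. After TMM scaling the groups of miR-10b-5p and let-7b-5p overlapped, and those of miR-10a-5p did not. Among the members the largest fold change was that of miR-99b-5p, at 8686 ± 2029 CPM under high glucose and 13253 ± 3305 CPM under normal glucose (mean ± SD, n = 3 each). Its log2 fold change was -0.55 with an SE of 0.31 (95% interval -1.22 to 0.12). Of its 9 library pairs, 8 were lower in high glucose, and the intervals of miR-99a-5p and miR-99b-5p reach past 0.

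The intervals of the other members included 0 as well. The log2 fold change was -0.15 ± 0.26 (SE) for miR-100-5p, with 13278 ± 3018 CPM under high glucose and 15674 ± 3399 CPM under normal glucose (mean ± SD, n = 3 each). miR-99b-3p had -0.06 ± 0.25, miR-125a-5p -0.35 ± 0.32, miR-125a-3p -0.27 ± 0.31 and miR-125b-5p -0.15 ± 0.30 (log2 fold change ± SE). For miR-125b-5p, 4175 ± 733 CPM under high glucose stood against 4887 ± 1102 CPM under normal glucose (mean ± SD, n = 3 each). Each of the 7 had an adjusted p of 0.995 in edgeR, none of the 361 passed (0%), and 10 of the 361 had an unadjusted p under 0.05 in edgeR (2.77%), no member among them. All 7 fold changes were below 0, with a median of -0.27, beside a median of -0.04 and 53.5% below 0 over all miRNAs tested. Without normal glucose replicate 2 the members' median was -0.18 beside -0.11 over all, with 4 of 7 below that overall median, and without normal glucose replicate 1 the members below 0 were 5 of 7. With the replicate number as a block, which paired these groups, 0 of 361 miRNAs were called and 19 had an unadjusted p under 0.05 (edgeR), and the lowest adjusted p of a member was 0.758. The summed miR-30 level, given above, also separated these groups, again without a background share, and its part in these values was not tested.

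Single libraries set several values of this comparison, and the signs of 2 members turned: miR-99b-3p was at 0.05 without high glucose replicate 2, 0.04 without mannitol replicate 2 and 0.02 without normal glucose replicate 1, and miR-125b-5p was at 0.02 without normal glucose replicate 1. Without normal glucose replicate 2, miR-125a-5p was at -0.07 and miR-125a-3p at -0.04. Without normal glucose replicate 3, miR-125a-5p was at -0.60. miR-100-5p was at -0.01 without high glucose replicate 2, -0.05 without mannitol replicate 2 and -0.04 without normal glucose replicate 1. The miR-125a arms thus leaned on normal glucose replicate 2, where both were highest in their group.

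The other products of the clusters did not all go with the members. In high glucose against normal glucose the let-7 partners let-7a-5p, let-7c-5p and let-7e-5p had log2 fold changes of -0.57, -0.32 and -0.45. In high glucose against mannitol they had 0.03, -0.28 and -0.01, and in mannitol against normal glucose -0.61, -0.04 and -0.44. Of the 8 opposite arms 4 were tested, and against normal glucose miR-125b-1-3p had -0.33, miR-125b-2-3p 0.14, let-7e-3p 0.07 and let-7c-2-3p 0.46. let-7c-2-3p has counts identical to those of let-7a-1-3p, and its hairpin lies outside the 3 clusters. Against mannitol, 2 of the 4 arms were above and 2 below 0. None of these passed the test (edgeR).

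High glucose was also set against mannitol, which matches it in osmolality. Here miR-125a-3p had the largest fold change of the members, with 1103 ± 226 CPM under high glucose and 1949 ± 680 CPM under mannitol (mean ± SD, n = 3 each). Its log2 fold change was -0.66 with an SE of 0.32 (95% interval -1.34 to 0.01). miR-125a-3p was lower in 8 of 9 library pairs and did not pass the test (edgeR's quasi-likelihood test, unadjusted p = 0.0526, adjusted p = 0.704). miR-125b-1-3p, not a member by name but the 3p arm of a miR-125 hairpin, had a similar value of -0.67 ± 0.31 (SE, edgeR adjusted p = 0.704). miR-99a-5p was lower in all 9 pairs, with 3097 ± 250 CPM under high glucose and 4657 ± 649 CPM under mannitol (mean ± SD, n = 3 each) and a log2 fold change of -0.43 ± 0.25 (SE, edgeR adjusted p = 0.704). In CPM it was again the only member of the 7 without overlap, beside 7.76% of the 361 miRNAs lower without overlap.

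miR-99b-5p, at 8686 ± 2029 CPM under high glucose and 13744 ± 5559 CPM under mannitol (mean ± SD, n = 3 each), had a log2 fold change of -0.50 ± 0.31 (SE). miR-125b-5p, at 4175 ± 733 CPM under high glucose and 6556 ± 2655 CPM under mannitol (mean ± SD, n = 3 each), had -0.49 ± 0.30 (SE). Mannitol replicate 2 lay at the high glucose level for both, apart from the other mannitol libraries. Values of -0.15 ± 0.26 for miR-100-5p, -0.05 ± 0.25 for miR-99b-3p and -0.23 ± 0.32 for miR-125a-5p (log2 fold change ± SE) completed the families. No member and no other miRNA passed (0 of 361, 0%), and 19 of 361 had an unadjusted p under 0.05 in edgeR (5.26%), with no member among them. By DESeq2, 1 miRNA passed, miR-182-5p, which is no member. The 7 fold changes were all below 0 with a median of -0.43, beside -0.04 and 53.5% over all tested. Single libraries set several of these values. Without mannitol replicate 3, miR-125a-3p was at -0.41, miR-99b-5p at -0.25, miR-125b-5p at -0.23, miR-100-5p at 0.02 and miR-99b-3p at 0.01. Without mannitol replicate 2, miR-125a-3p was at -0.85, miR-99b-5p at -0.74, miR-125b-5p at -0.72 and miR-125a-5p at -0.38. In that fit 96 of 372 miRNAs had an unadjusted p under 0.05 (edgeR), and the smallest adjusted p of a member was 0.0833. Without mannitol replicate 3 there were 6 of 363, and the smallest adjusted p of a member was 0.999 (edgeR). The p-values of this comparison thus leaned on single mannitol libraries. miR-125a-5p was at -0.11 without mannitol replicate 1. The members' median without mannitol replicate 3 was -0.23 beside -0.04 over all, with 5 of 7 members below 0. miR-99b-3p was at 0.03 without high glucose replicate 2.

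Mannitol against normal glucose gives the values for an added solute without added glucose. The log2 fold changes were 0.39 ± 0.31 for miR-125a-3p, 0.34 ± 0.30 for miR-125b-5p and 0.11 ± 0.25 for miR-99a-5p (SE). For miR-125a-3p the 95% interval ran from -0.28 to 1.06, with 1949 ± 680 CPM under mannitol and 1386 ± 254 CPM under normal glucose (mean ± SD, n = 3 each). Leaving out 1 library at a time moved miR-125a-3p between 0.14 (without mannitol replicate 3) and 0.69 (without normal glucose replicate 2), and also to 0.68 without mannitol replicate 2 and 0.25 without normal glucose replicate 1. It moved miR-125b-5p between 0.09 (without mannitol replicate 3) and 0.68 (without mannitol replicate 2), and also to 0.51 without normal glucose replicate 1. miR-100-5p had 0.00 ± 0.26, miR-99b-5p -0.05 ± 0.31, miR-99b-3p -0.01 ± 0.25 and miR-125a-5p -0.12 ± 0.32 (log2 fold change ± SE). No member's groups were without overlap, beside 2.22% higher and 1.11% lower without overlap among the 361. None of the 361 passed (0%, edgeR), 5 had an unadjusted p under 0.05 (1.39%), and the median of the members was 0.00 beside 0.01 over all miRNAs, of which 52.1% were above and 47.9% below 0. Of the members 4 were above and 3 below 0. The values near 0 had no stable sign across settings, and scaling to the authors' library constant put all 7 above 0 while it put the median of all miRNAs at 0.50. The 3 comparisons share libraries pairwise, so the values of a member in them are not independent.

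**Figure D4:**
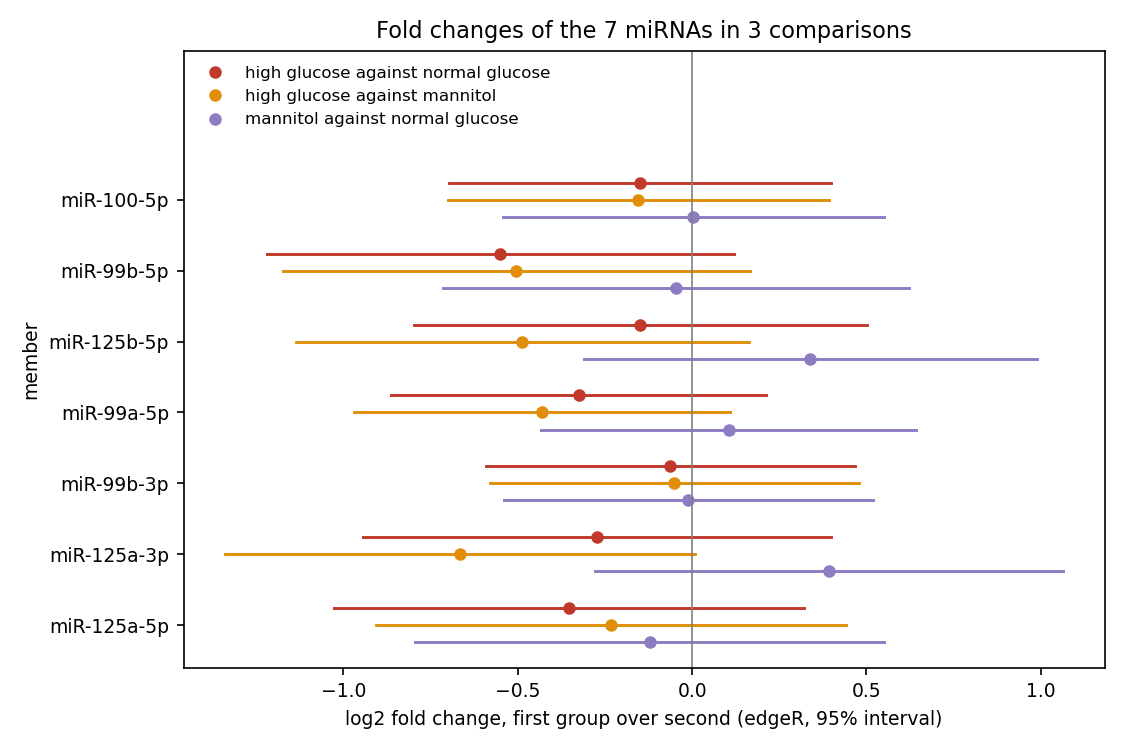
Log2 fold change with 95% interval (edgeR, TMM) of each member in the comparisons of high glucose with normal glucose, high glucose with mannitol, and mannitol with normal glucose. All intervals include 0, and the lowest point is that of miR-125a-3p in high glucose against mannitol, at -0.66.

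Among themselves the members moved together to different degrees. Over the 9 libraries the correlation of log2 CPM ran from r = 0.03 for miR-99a-5p with miR-99b-3p to r = 0.88 for miR-99b-5p with miR-125b-5p, with a median of 0.60 over 21 pairs. The pair with the highest value lies on different chromosomes. In CPM, libraries differed in the same direction for many members: mannitol replicate 2 was the lowest of its group for 7 of 7 members, high glucose replicate 2 the lowest of its group for 6, and high glucose replicate 1 the highest for 6. On the TMM-scaled log2 scale the members' median deviation from their 9-library mean was -0.13, -0.22 and -0.17 in high glucose, 0.29, -0.26 and 0.40 with mannitol, and 0.19, 0.10 and -0.22 in normal glucose. The mannitol libraries alone thus spanned the whole range of the 9.

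Base composition was set beside these library differences. The members hold up to 63.6% G and C, and 7 of 7 lay above the median of 48.0% over the 228 of 260 miRNAs listed in all libraries that have a RefSeq sequence (87.7%). Across those miRNAs, which are not independent replicates, Spearman's rho between GC content and the log2 fold change was -0.451 for high glucose against normal glucose, -0.659 for high glucose against mannitol and 0.388 for mannitol against normal glucose. With the replicate block it was -0.448 for high glucose against normal glucose. Within groups the rho between GC content and a library's deviation had both signs, at 0.236, -0.676 and -0.515 in high glucose, 0.678, -0.535 and 0.611 with mannitol, and 0.478, -0.213 and -0.303 in normal glucose. This rho and the members' median deviation had opposite signs in high glucose replicate 1 (0.236 and -0.13) and normal glucose replicate 2 (-0.213 and 0.10). In the other libraries they had the same sign. The part of GC content in the members' values was not tested.

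**Figure D5:**
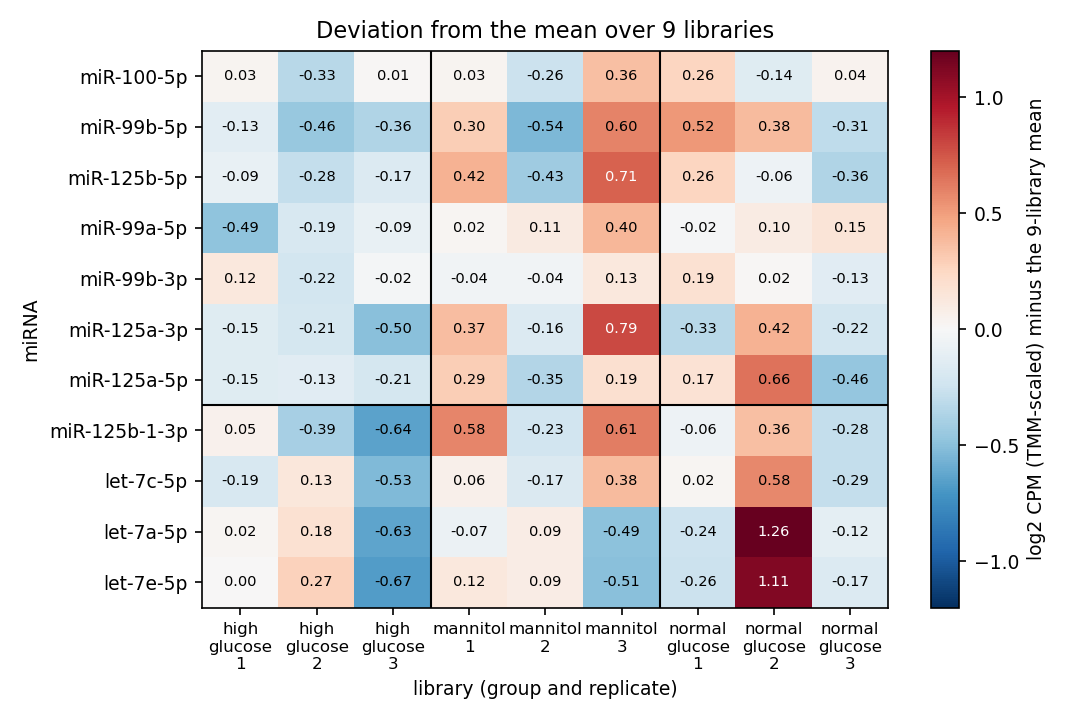
Heat map of the deviation of each miRNA from its own 9-library mean (log2 CPM, TMM-scaled), with the 7 members above the line and 4 other arms of the clusters below it, and libraries ordered by group. The members' median is -0.26 in mannitol replicate 2 and 0.40 in mannitol replicate 3, and let-7a-5p and let-7e-5p are highest in normal glucose replicate 2.

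The miRNAs whose pattern over the 9 libraries was most like that of each member were found by Pearson's r of log2 CPM among 161 miRNAs of at least 100 mean CPM. miR-99b-5p was most like miR-92a-3p, from the miR-17 cluster and a paralog (r = 0.984, Spearman's rho = 0.983, and r = 0.972 without the 2 libraries farthest from the median). miR-100-5p was most like miR-28a-3p (r = 0.950, rho = 0.917, and 0.898 without them). For miR-125a-3p the likest were miR-151-3p (r = 0.951, rho = 0.850, and 0.895 without them) and miR-125b-1-3p (r = 0.916, rho = 0.867, and 0.902 without them). The third 3p arm of the miR-125 hairpins, miR-125b-2-3p, ran the other way, with r = -0.38 to miR-125a-3p and r = -0.63 to miR-125b-1-3p. miR-125b-5p was most like miR-574-3p (r = 0.933, rho = 0.733, and 0.747 without them), and miR-125a-5p most like miR-674-3p (r = 0.902, rho = 0.883, and 0.743 without them). miR-99b-3p shared its likest miRNA with miR-100-5p, miR-28a-3p, at a lower value (r = 0.845, rho = 0.733, and 0.665 without them). miR-99a-5p was most like miR-331-5p (r = 0.876, rho = 0.867, and 0.599 without them), the lowest value without those libraries among these. Within the clusters, r was 0.07 for miR-99b-5p with let-7e-5p (rho = -0.20, and r = 0.60 without the 2 farthest libraries) and 0.53 for miR-125a-5p with let-7e-5p (rho = 0.38, and -0.33 without them). It was -0.53 for miR-100-5p with let-7a-5p (rho = -0.70, and -0.49 without them) and 0.39 for miR-99a-5p with let-7c-5p (rho = 0.25, and 0.08 without them). The first, second and last of these rest on those libraries. These correlations describe 9 libraries that share their composition and carry no test.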

How the data were processed

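Small RNA of vesicles precipitated from podocyte medium was sequenced in 9 libraries, 3 per group. Per the file headers, the deposited counts are total reads per miRNA. The authors' second column holds RPM, the count divided by a library constant (21155461 to 31887751) and served as an alternative scaling; the sources used here do not say what it counts. The submitters' processing notes name bcl2fastq, BWA and mm10, with settings not given in the sources used here. Counts were filtered by group (361 of 479 listed miRNAs kept), TMM-scaled and fitted jointly with edgeR 4.0.16 (robust quasi-likelihood, R 4.3.3), with Benjamini-Hochberg adjustment and a threshold of 0.05, after a test on simulated data. DESeq2 1.42.0 and limma 3.58.1 were alternatives. Reads carry no molecular identifiers, and no interval covers amplification. Ratios were compared by exact two-sided permutation tests on log2 values. Libraries within a group differed beyond sampling noise (chi-square per degree of freedom 74.8 to 645 over 9 pairs), so each counted once. Where a title bears no number, its library was called replicate 1. All 7 members were named, with their cluster partners and the 3 likest miRNAs by r as candidates, of which the first is given, or the first pair. The members and lists were chosen with earlier results of these data known. All sequences come from RefSeq, and 11 mature sequences of members and partners matched by name. Between high and normal glucose, same-numbered libraries deviated together (r = 0.31, 0.30 and 0.32 for replicates 1, 2 and 3), so the replicate number was taken to pair these groups, from the data and not from a label. The unpaired fit is the main one, and the ratio tests are unpaired.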

Additional observations from a re-analysis of the deposited data

How the results depend on the processing

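No member passed the threshold under any of the 18 alternatives. The count of miRNAs called, 0 in each comparison, became 2 without an expression filter in high glucose against normal glucose. In high glucose against mannitol it became 3 without a filter and 1 by DESeq2, and 0 to 1 when single libraries were left out (1 without mannitol replicate 2). In mannitol against normal glucose it became 1 without a filter and 1 with listed zeros set to 9 reads. Of the members' fold changes, 343 kept their sign and 35 turned it, and of the ratio differences 132 kept it and 12 turned it. Apart from left-out libraries, signs turned only in mannitol against normal glucose. miR-100-5p was at -0.0078 by limma-voom and -0.0074 with the replicate block. miR-99b-5p was at 0.052 by library size, 0.49 by the authors' constant, 0.10 with zeros set to 9 reads and 0.011 with only the 6 libraries compared. miR-99b-3p was at 0.050, 0.47, 0.12 and 0.033 under the same settings, and miR-125a-5p at 0.44 by the constant and 0.022 with zeros set to 9 reads. The constant put the median of all miRNAs at -0.12, -0.59 and 0.50 in the 3 comparisons, and the members' median relative to it was -0.20, -0.39 and -0.0031. When single libraries were left out, high glucose against normal glucose ran from -0.18 to 0.053 for miR-99b-3p and -0.29 to 0.024 for miR-125b-5p. High glucose against mannitol ran from -0.29 to 0.018 for miR-100-5p and -0.21 to 0.028 for miR-99b-3p. Mannitol against normal glucose ran from -0.17 to 0.21 for miR-100-5p, -0.013 to 0.21 for miR-99a-5p, -0.30 to 0.30 for miR-99b-5p, -0.070 to 0.092 for miR-99b-3p and -0.30 to 0.23 for miR-125a-5p. Differences of log2 ratios ran from -0.25 to 0.23 (miR-99b-5p over miR-99b-3p) and -0.18 to 0.14 (miR-99b-5p over miR-125a-5p) in mannitol against normal glucose. In high glucose against normal glucose they ran from -0.25 to 0.13 (miR-125a-5p over miR-125a-3p) and -0.12 to 0.12 (miR-100-5p over miR-125b-5p). For miR-99a-5p over miR-125b-5p they ran from -0.19 to 0.28 in high glucose against mannitol and -0.48 to 0.0022 in mannitol against normal glucose. The cause was not tested. The order of the levels held in 5 or 6 of the 6 neighbouring pairs. Deviations of same-numbered libraries had correlations of 0.04 to 0.68 over all 9 such pairs, against -0.71 to 0.34 over the 18 other pairs, and 7 of 9 libraries correlated best with their own number. The comparisons with mannitol each had a same-numbered pair under 0.1, and no label says what a number marks. For replicates 1, 2 and 3 the correlations were 0.68, 0.66 and 0.04 between high glucose and mannitol. Between mannitol and normal glucose they were 0.49, 0.08 and 0.11. With the replicate block 0 miRNAs were called in each comparison, and those with an unadjusted p under 0.05 numbered 19, 52 and 17 in place of 10, 19 and 5. The smallest adjusted p of a member with the block was 0.758, 0.333 and 0.998 (edgeR). An exact sign-flip test of the ratios over 3 same-numbered differences cannot go below p = 0.25.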

Other observations

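Other let-7 guide arms, of the family whose genes neighbour these members, were compared as a list of 7 (let-7b, let-7d, let-7f, let-7g, let-7i, let-7k and miR-98), of which 6 were tested and let-7k was not. In high glucose against normal glucose 2 had fold changes above 0 and 4 below, with a median log2 fold change of -0.14. In high glucose against mannitol 4 were above and 2 below 0, with a median of 0.22. In mannitol against normal glucose all 6 were below 0, with a median of -0.18, and none passed the test (edgeR).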
